A study of Mus musculus with 3 samples.

Results

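The mitochondrial respiratory chain was followed through 89 genes of 19938 genes measured with 1 symbol on the arrays. They were chosen by symbol alone: every gene whose symbol starts with Nduf (complex I), Uqcr (complex III), Cox4 to Cox8 (complex IV) or Atp5 (complex V, the ATP synthase), and Sdha, Sdhb, Sdhc and Sdhd (complex II). The rule gave 43 genes of complex I, 4 of complex II, 8 of complex III, 17 of complex IV and 17 of complex V. Of the 43, 7 are assembly factors (Ndufaf1 to Ndufaf7), which help to build complex I and are not subunits of it. Ndufa4 carries a complex I name but is now known as a subunit of cytochrome c oxidase, and it is counted here by its name.

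RNA was taken on day 7 from distal colons of male mice on a BALB/c background, 10 to 12 weeks old. The IL-4Rα-/- colitis pool held 6 littermates carrying the Il4ra tm1Sz deletion in the germ line, thus without the IL-4 receptor α subunit in every cell, that had drunk 3% DSS (dextran sulfate sodium, which injures the colonic epithelium) for 7 days. The WT colitis pool held 3 wild-type littermates given the same DSS, and the WT normal pool held 4 wild-type mice given water. Each pool was 1 array, so differences have no replicate error and no p-value, and the number of arrays limits their precision. There was no array of untreated IL-4Rα-/- mice in the analysis, so the genotype is seen in colitis only. The paper reported milder colitis in IL-4Rα-/- than in WT mice after the same DSS. Genotype and severity of colitis therefore cannot be told apart between the colitis pools.

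Oxidative phosphorylation moves electrons from NADH (through complex I) or succinate (through complex II) by way of complex III and cytochrome c to complex IV, which reduces oxygen. The proton gradient built on the way drives the ATP synthase. Most subunits are encoded in the nucleus and imported into the mitochondrion, while a small set of core subunits is encoded in mitochondrial DNA. Colonocytes rely on this system to oxidise butyrate, a product of bacterial fermentation and their main fuel.

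The arrays had medians of 4.11 in IL-4Rα-/- colitis, 4.18 in WT colitis and 4.11 in WT normal on the log2 scale. Il4ra, the targeted gene, had log2 signals of 4.76, 6.63 and 5.69 on these arrays, lowest in the IL-4Rα-/- pool, though where its probes lie relative to the deletion is not known here. All 12 markers of colonic epithelium had signals above 4 on each array. Genes of olfactory and vomeronasal receptors, used as a guide to background, had a 95th percentile of 3.5. A level of 4 was therefore taken as dim: 80 members reached it on at least 1 array, and 9 had signals below it on every array.

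Many respiratory chain genes had lower signals in WT colitis than in either other pool, by small amounts. Their median difference between IL-4Rα-/- colitis and WT normal was 0.0, as was that of all genes. Compared with WT normal, 55 members were lower in WT colitis, 12 were higher and 22 had the same value, while 12.0% of all genes were lower and 35.8% higher. The median difference of the 89 members was -0.07, with quartiles of -0.31 and 0.0, and the median of all genes was 0.0. Past a margin of 0.2 (1.15-fold), 32 members were lower and 3 higher in WT colitis (4.25% and 16.9% of all genes). Past 0.5 (1.41-fold), 7 were lower and 0 higher (1.41% and 5.45% of all genes), and 0 members passed 2-fold in either direction (0.456% of all genes were lower and 1.16% higher).

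Between IL-4Rα-/- colitis and WT colitis the signs were the opposite. In IL-4Rα-/- colitis 62 members were higher, 6 lower and 21 the same, against 10.4% of all genes higher and 37.3% lower, with a median difference of 0.13 for the members. Past 0.2, 35 were higher and 3 lower (3.47% and 16.3% of all genes). Past 0.5, 7 were higher and 0 lower (0.913% and 4.55% of all genes). Only Ndufa4 passed 2-fold, upward, and 0 members passed it downward (0.271% of all genes did so upward and 0.908% downward). This comparison shares the WT colitis array with the one above, so its opposite signs are no separate evidence.

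Signs near 0 depended on the scale of the arrays. With each array centred on its own median, 70.5% of all genes were below WT normal in WT colitis and 28.1% were higher. WT colitis had the highest array median, and 45.8% of all genes had the same deposited value on the 3 arrays. The counts past 0.2 moved less: under that centring 38 members (42.7%) were lower by more than 0.2 and 3 higher, beside 6.04% and 12.9% of all genes. With quantile normalization 39 members (43.8%) were lower and 2 higher, beside 6.57% and 12.7% of all genes.

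**Figure D1:**
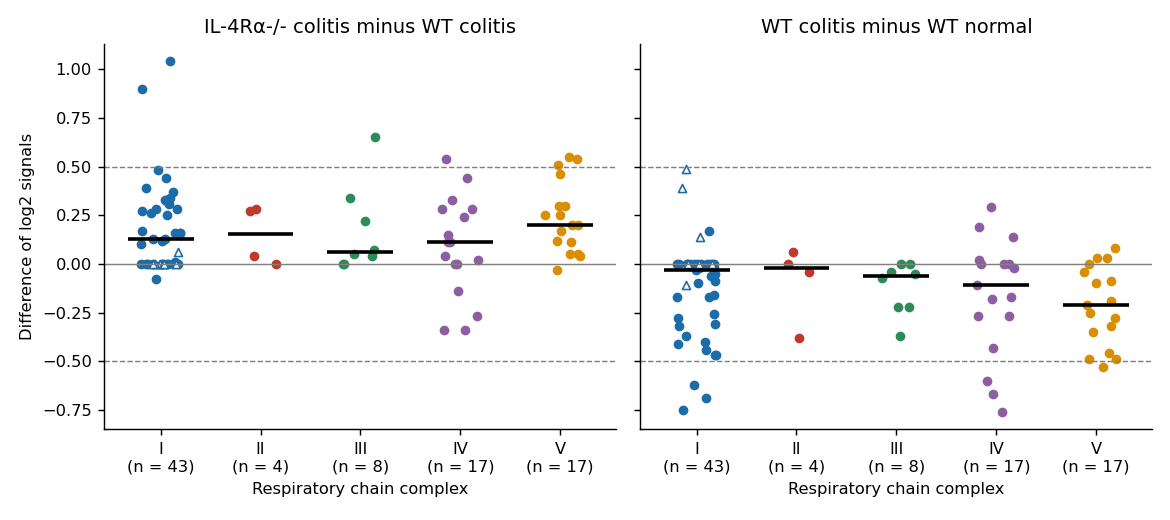
Difference of log2 signals for each of the 89 members (1 point each) by complex, for IL-4Rα-/- colitis minus WT colitis (left) and WT colitis minus WT normal (right). Open triangles are assembly factors, black bars are medians, and dashed lines mark 0.5 and -0.5. In complex V, 16 of 17 members lie above 0 on the left and 13 of 17 below 0 on the right. Of all genes, 10.4% and 12.0% do so as deposited, and 69.5% and 70.5% after median centring.

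The third comparison leaves out the WT colitis array. IL-4Rα-/- colitis minus WT normal had a median of 0.0 over the 89 members, with quartiles of -0.05 and 0.1. In IL-4Rα-/- colitis, 31 members were above WT normal, 29 below and 29 equal to it, beside 16.4%, 17.9% and 65.8% of all genes. Past 0.2, 11 were higher and 5 lower (5.67% and 4.73% of all genes), and past 0.5, 1 was higher and 0 lower (1.15% and 1.01% of all genes). The 1 was Ndufa6, an accessory subunit of complex I, with log2 signals of 8.77 in IL-4Rα-/- colitis, 8.40 in WT colitis and 8.23 in WT normal.

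WT colitis had the lowest value of the 3 arrays for 51 members (57.3%), against 6.61% of all genes. With a margin of 0.2 against both other arrays it was lowest for 28 members (31.5%, against 2.08% of all genes) and highest for 1 (1.12%, against 13.4%). The 28 were spread over the complexes, with 12 in complex I, 1 in complex II, 3 in complex III, 5 in complex IV and 7 in complex V. Under median centring the margin was met by 34 members (38.2%) and by 3.13% of all genes. Under quantile normalization it was met by 33 (37.1%) and by 3.35%.

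Since 46 members had high signals, the same counts were taken over genes with a mean log2 signal of at least 8. There, 20 of 46 members were below WT normal in WT colitis by more than 0.2 and 0 were higher. Of all 1334 such genes, 14.8% were lower and 22.8% higher. In IL-4Rα-/- colitis 22 of the 46 were higher than in WT colitis and 0 lower, beside 13.2% and 19.8% of all such genes. For 16 of the 46 (34.8%), WT colitis was lowest by more than 0.2, beside 9.22% of all such genes.

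**Figure D2:**
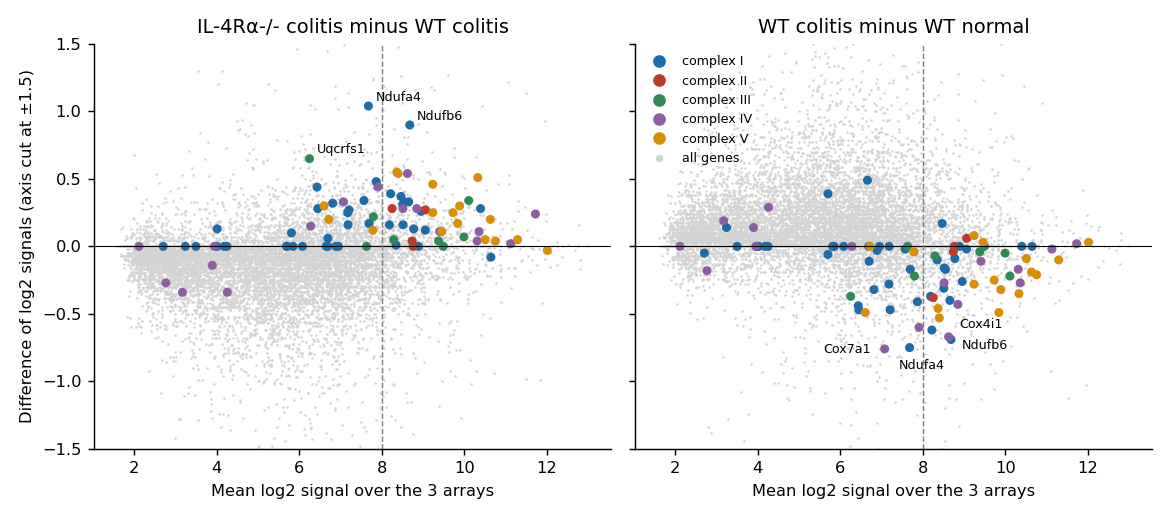
Difference of log2 signals against the mean log2 signal over the 3 arrays, for IL-4Rα-/- colitis minus WT colitis (left) and WT colitis minus WT normal (right), with members in colour by complex and all genes in grey. The vertical axis ends at 1.5 and -1.5, which leaves out 86 genes on the left and 119 on the right, none of them members, and the dashed line marks a mean of 8. Right of that line 22 of 46 members lie above 0.2 on the left and 20 below -0.2 on the right.

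The promoters of the members were searched for the letters of factors known to act on respiratory chain genes. Windows from 250 bases before to 50 bases after the transcription start (RefSeq, GRCm38.p6) were found for 73 of the 89 members. The core of the NRF1 site, GCGCATGC on either strand, was present in 12 of 73 members (16.4%) and in 4.29% of 15563 genes on the arrays. The share was 16.3% of 43 members that were lowest in WT colitis and 16.7% of the other 30. A YY1 core, AAGATGGC, was in 13.7% of members and 3.77% of all, an ERR core, AAGGTCA, in 9.59% and 4.48%, and an ETS core, CCGGAAGT, in 6.85% and 6.03%. A match is a description of letters and not a bound site. To show where it lies, the NRF1 core is given in capitals before the start of 1 member from each of 4 complexes, all lowest in WT colitis.
Ndufa11 (complex I, chr17:56717678-56717733, + strand): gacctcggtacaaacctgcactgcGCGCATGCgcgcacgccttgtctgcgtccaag
Sdhb (complex II, chr4:140961193-140961248, + strand): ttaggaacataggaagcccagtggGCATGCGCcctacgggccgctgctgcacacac
Cox6a1 (complex IV, chr5:115349087-115349142, - strand): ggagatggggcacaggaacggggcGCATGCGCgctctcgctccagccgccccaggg
Atp5g2 (complex V, chr15:102671056-102671111, - strand): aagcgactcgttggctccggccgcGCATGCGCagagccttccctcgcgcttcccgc
The core begins 60, 54, 160 and 40 bases before the start in these 4 genes. In Ndufa11, Cox6a1 and Atp5g2 it is part of a longer palindrome that reads the same on both strands.

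Complex I is the NADH dehydrogenase through which most electrons enter the chain. Of its 36 subunits, 23 were below WT normal in WT colitis, 1 was higher and 12 were equal. As deposited, 12.0% of all genes were lower and 35.8% higher, but after median centring 70.5% of all genes were lower. Past 0.2, 13 of the 36 subunits were lower and 0 higher, beside 4.25% and 16.9% of all genes. The largest differences were those of Ndufa4 and Ndufb6. Ndufa4 had log2 signals of 8.12 in IL-4Rα-/- colitis, 7.08 in WT colitis and 7.83 in WT normal, so that WT colitis was 1.68-fold below WT normal and IL-4Rα-/- colitis 2.06-fold above WT colitis. Ndufb6, an accessory subunit of the membrane arm, had 9.05, 8.15 and 8.84 on the same arrays, 1.61-fold below WT normal in WT colitis and 1.87-fold above WT colitis in IL-4Rα-/- colitis. In both genes IL-4Rα-/- colitis was the highest of the 3 arrays and WT colitis the lowest.

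The nuclear-encoded core subunits of complex I, most of which carry its flavin or iron-sulfur clusters, were measured by 6 genes. Ndufs8, which holds iron-sulfur clusters, had 8.27 in IL-4Rα-/- colitis, 7.88 in WT colitis and 8.50 in WT normal, and was 1.54-fold below WT normal in WT colitis. Ndufv1, the flavin-binding subunit that accepts electrons from NADH, had 8.61 in IL-4Rα-/- colitis, 8.30 in WT colitis and 8.61 in WT normal. Ndufs3 had 8.57, 8.41 and 8.57 on these arrays. In Ndufs3 and Ndufv1 WT colitis was lowest and the other arrays were equal. Ndufs1, the largest of them, had 7.29 in IL-4Rα-/- colitis and 7.13 on both WT arrays, Ndufv2 had 9.13, 9.01 and 9.03, and Ndufs7 had 10.59 in IL-4Rα-/- colitis and 10.67 on both WT arrays. The value for Ndufs7 was the only one among the 36 subunits that was below WT colitis in IL-4Rα-/- colitis.

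The 30 accessory subunits surround the core and are needed for its stability. Of them, 11 were below WT normal in WT colitis by more than 0.2 and 0 were higher (4.25% and 16.9% of all genes). Besides Ndufa4 and Ndufb6, these included Ndufa2 (6.48 in IL-4Rα-/- colitis, 6.20 in WT colitis and 6.67 in WT normal) and Ndufa11 (7.23, 6.96 and 7.43). Ndufb5 had 8.05, 7.57 and 7.98, and IL-4Rα-/- colitis was 0.48 above WT colitis. Ndufa8 had 8.17 in IL-4Rα-/- colitis, 8.01 in WT colitis and 8.38 in WT normal, and thus stayed below WT normal on both colitis arrays. In Ndufab1, the mitochondrial acyl carrier protein, the WT arrays were within 0.02 of each other, with 7.79 in IL-4Rα-/- colitis, 7.45 in WT colitis and 7.47 in WT normal. Its other probe set had 7.40, 7.34 and 7.34, so the 0.34 between IL-4Rα-/- colitis and WT colitis was 0.06 there. Ndufc2 had 10.58 in IL-4Rα-/- colitis and 10.30 on both WT arrays. Ndufa1, Ndufa10, Ndufb8, Ndufb9 and Ndufs6 were lowest in WT colitis by more than 0.2, among them Ndufa1 with 6.58 in IL-4Rα-/- colitis, 6.14 in WT colitis and 6.58 in WT normal. In Ndufa3, Ndufa7, Ndufa9, Ndufa12, Ndufa13, Ndufb3, Ndufb11 and Ndufc1 the WT arrays lay within 0.2 of each other. Ndufa5, Ndufb2, Ndufb7, Ndufb10, Ndufs4, Ndufs5 and Ndufv3 had the same value on all 3 arrays.

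Assembly factors of complex I bring its modules together and leave once it is complete. Ndufaf1 had 6.82 on both colitis arrays and 6.33 in WT normal, a difference of 0.49. Ndufaf4 had 5.83 on both colitis arrays and 5.44 in WT normal, a difference of 0.39. These were the 2 largest positive differences of WT colitis from WT normal among the 89 members, and neither differed between IL-4Rα-/- colitis and WT colitis. Ndufaf3 had 6.70 in IL-4Rα-/- colitis, 6.64 in WT colitis and 6.75 in WT normal. Ndufaf6 had 3.29 on both colitis arrays and 3.15 in WT normal, and Ndufaf2, Ndufaf5 and Ndufaf7 had 1 value each on all arrays (3.50, 3.97 and 4.18), near the dim level. A wider list of 13 complex I assembly factors added 6 genes from outside the 89. Of these, Tmem126b, a partner of Ndufaf1 in the assembly of the membrane arm, had 5.10 in IL-4Rα-/- colitis, 5.07 in WT colitis and 4.57 in WT normal. Timmdc1 went the other way, with 6.91, 6.70 and 6.91 on these arrays. Acad9, Ecsit, Foxred1 and Nubpl had equal values on the WT arrays. Over the 13, 4 (30.8%) were above and 2 (15.4%) below WT normal in WT colitis, beside 35.8% and 12.0% of all genes. The median difference of the 13 was 0.0.

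Complex II links the chain to the citric acid cycle by oxidising succinate. Sdhb, its iron-sulfur subunit, had 8.31 in IL-4Rα-/- colitis, 8.03 in WT colitis and 8.41 in WT normal. Sdhd, a membrane anchor, had 9.26, 8.99 and 8.93, so that it was highest in IL-4Rα-/- colitis and did not differ by more than 0.2 between the WT arrays. Sdha, the flavin-containing catalytic subunit, had 8.75 in IL-4Rα-/- colitis, 8.71 in WT colitis and 8.75 in WT normal, and Sdhc had 8.76 on all 3 arrays. Of 4 assembly factors of the complex, all 4 had equal values on the WT arrays.

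Complex III passes electrons from ubiquinol to cytochrome c. Uqcrfs1, the Rieske iron-sulfur protein that takes the first electron, had 6.56 in IL-4Rα-/- colitis, 5.91 in WT colitis and 6.28 in WT normal. It was 1.57-fold above WT colitis in IL-4Rα-/- colitis, the largest difference of the complex. Uqcrc2, a core protein, had 10.26, 9.92 and 10.14 on these arrays, and Uqcr10 had 7.87 in IL-4Rα-/- colitis, 7.65 in WT colitis and 7.87 in WT normal. The other core protein, Uqcrc1, had 9.39, 9.35 and 9.39. Uqcrb and Uqcrq differed by at most 0.07 between any 2 arrays, and Uqcrh, the hinge protein, had 9.49 on all 3. Over the 8 members, 6 were below WT normal in WT colitis, 0 higher and 2 equal (12.0% of all genes lower and 35.8% higher). Past 0.2, 3 of the 8 were lower and 0 higher, beside 4.25% and 16.9% of all genes. Cyc1, the cytochrome c1 subunit that the symbol rule does not take in, had 8.57 in IL-4Rα-/- colitis, 8.43 in WT colitis and 8.57 in WT normal. Uqcc2, an assembly factor, had 6.89, 6.57 and 7.33, while 5 of the 7 listed genes of complex III from outside the 89 had equal values on the WT arrays. Cytochrome c itself (Cycs) had 10.80, 10.79 and 10.78.

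Complex IV, cytochrome c oxidase, has several subunits with a common form and a form restricted to certain tissues. Among the common forms, Cox4i1 differed most. Cox4i1 had log2 signals of 8.76 in IL-4Rα-/- colitis, 8.22 in WT colitis and 8.89 in WT normal, 1.59-fold below WT normal in WT colitis and 1.45-fold above WT colitis in IL-4Rα-/- colitis. Cox7a2 had 8.00, 7.56 and 8.16, and Cox6a1 had 8.89, 8.61 and 9.04. Cox5a had 8.61 in IL-4Rα-/- colitis, 8.33 in WT colitis and 8.60 in WT normal. Smaller differences were found in Cox5b (10.34, 10.23 and 10.50), Cox8a (10.28, 10.24 and 10.41), Cox6b1 (9.44, 9.33 and 9.44) and Cox7b (11.13, 11.11 and 11.13). In Cox6c, by contrast, IL-4Rα-/- colitis was highest with 11.89, beside 11.65 in WT colitis and 11.63 in WT normal. Cox7a2l, which takes part in supercomplexes with complex III, had 6.38 in IL-4Rα-/- colitis and 6.23 on both WT arrays.

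Cox7a1, the form of subunit VIIa of heart, skeletal muscle and brown fat, had 7.04 in IL-4Rα-/- colitis, 6.71 in WT colitis and 7.47 in WT normal. Among the members it lay furthest below WT normal in WT colitis, by 1.69-fold, and its difference between IL-4Rα-/- colitis and WT normal was -0.43. Among adipocyte markers Cidec had 5.02, 5.10 and 5.95 on the same arrays. Adipoq had 3.26, 3.32 and 3.90, below the dim level of 4 on each. In that list of 6, 3 were below WT normal in WT colitis by more than 0.5 and 0 higher (1.41% and 5.45% of all genes). Of the 6, 5 were below 4 in IL-4Rα-/- colitis, 5 in WT colitis and 4 in WT normal. The log2 of the summed signal was 6.08 in IL-4Rα-/- colitis, 6.13 in WT colitis and 6.76 in WT normal. The brown fat markers Ucp1 (2.32) and Cidea (2.29) were at background on each array. Of 8 skeletal muscle markers 6 were below 4 in IL-4Rα-/- colitis, 5 in WT colitis and 6 in WT normal. Of these 8, 5 were above and 0 below WT normal in WT colitis (35.8% and 12.0% of all genes). Of 8 smooth muscle markers, 6 were below WT normal in IL-4Rα-/- colitis and 0 above it (17.9% and 16.4% of all genes). Past 0.2, 5 of them were lower and 0 higher (4.73% and 5.67% of all genes), and their median was -0.265. Their median for WT colitis minus WT normal was -0.065. The part of these cells in the value of Cox7a1 was not tested.

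The other restricted forms of complex IV had low signals, and all but Cox6b2 were below 4 on every array. Cox6a2, the muscle form of subunit VIa, had 3.95 on all 3 arrays, and Cox7b2, a testis form, had 2.12. Cox4i2, a form found in lung and in oxygen-sensing cells, had 3.85 in IL-4Rα-/- colitis, 3.99 in WT colitis and 3.85 in WT normal. Cox8b, the muscle form of subunit VIII, had 3.01, 3.35 and 3.16, and Cox6b2 had 4.13, 4.47 and 4.18. These 3 were the members of complex IV that were higher in WT colitis than in both other pools, on signals between 3.01 and 4.47. Cox8c had 2.53 in IL-4Rα-/- colitis, 2.80 in WT colitis and 2.98 in WT normal, and Ndufa4l2, a homologue of Ndufa4 induced by low oxygen, had 2.69, 2.69 and 2.74. Of 15 assembly factors of complex IV, 9 had equal values on the WT arrays. Coa3 had the largest difference, with 7.89 in IL-4Rα-/- colitis, 7.55 in WT colitis and 8.11 in WT normal.

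Complex V, the ATP synthase, had a median difference of -0.21 between WT colitis and WT normal, beside -0.11 in complex IV and -0.03 in complex I. The complex I median was -0.075 over its 36 subunits, without the assembly factors. In complex V 13 of the 17 members were lower and 3 higher, beside 12.0% and 35.8% of all genes. In IL-4Rα-/- colitis 16 of the 17 were higher than in WT colitis (10.4% of all genes), with a median of 0.20. After median centring 70.5% of all genes were lower in the first comparison and 69.5% higher in the second. Past 0.2, 9 of the 17 were lower in the first and 8 higher in the second, beside 4.25% and 3.47% of all genes. In both, 0 of the 17 passed 0.2 the other way. Among members at or above the median of all values, the medians for WT colitis minus WT normal were -0.21 in complex V, -0.22 in complex IV and -0.09 in complex I. In the catalytic head of the enzyme, Atp5a1 (the α subunit) had 10.55 in IL-4Rα-/- colitis, 10.04 in WT colitis and 10.39 in WT normal, and Atp5c1 (the γ subunit, the rotating shaft) had 9.45, 8.99 and 9.27. In both, WT colitis was lowest and IL-4Rα-/- colitis highest. Atp5b, the β subunit that holds the catalytic sites, differed by at most 0.10, with 11.29 in IL-4Rα-/- colitis, 11.24 in WT colitis and 11.34 in WT normal. Atp5d, the δ subunit, had 12.00, 12.03 and 12.00.

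Among the stalk and membrane subunits, Atp5o, which connects the head with the stator, had 8.58 in IL-4Rα-/- colitis, 8.04 in WT colitis and 8.57 in WT normal, and WT colitis was 1.44-fold below WT normal. Atp5mpl, a small membrane subunit, had 8.58, 8.03 and 8.49, and Atp5e, the ε subunit, had 6.64, 6.34 and 6.83. Atp5j2 had 9.79 in IL-4Rα-/- colitis, 9.62 in WT colitis and 10.11 in WT normal, and with a difference of -0.32 from WT normal it lay furthest below WT normal in IL-4Rα-/- colitis of the 17. Atp5pb, a stator subunit, had 9.43 in IL-4Rα-/- colitis, 9.18 in WT colitis and 9.10 in WT normal by its brighter probe set, but 8.44, 8.40 and 8.41 by the other. The difference between IL-4Rα-/- colitis and WT colitis was thus 0.25 by 1 probe set and 0.04 by the other. The c ring through which protons pass is encoded by 3 genes with the same mature protein, Atp5g1 (10.71 in IL-4Rα-/- colitis, 10.67 in WT colitis and 10.88 in WT normal), Atp5g2 (10.70, 10.50 and 10.69) and Atp5g3 (9.98, 9.68 and 10.00). All 3 were below WT normal in WT colitis, while in IL-4Rα-/- colitis Atp5g1 was 0.04 above WT colitis. Atp5j, a stalk subunit, had 9.81 in IL-4Rα-/- colitis, 9.56 in WT colitis and 9.81 in WT normal. In Atp5h, Atp5k, Atp5l and Atp5md the WT arrays lay within 0.1 of each other. Of 4 factors that assemble or inhibit the synthase, Atpaf1 had 6.26, 6.48 and 6.26 and the inhibitor Atpif1 had 10.65, 10.62 and 10.62.

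**Figure D3:**
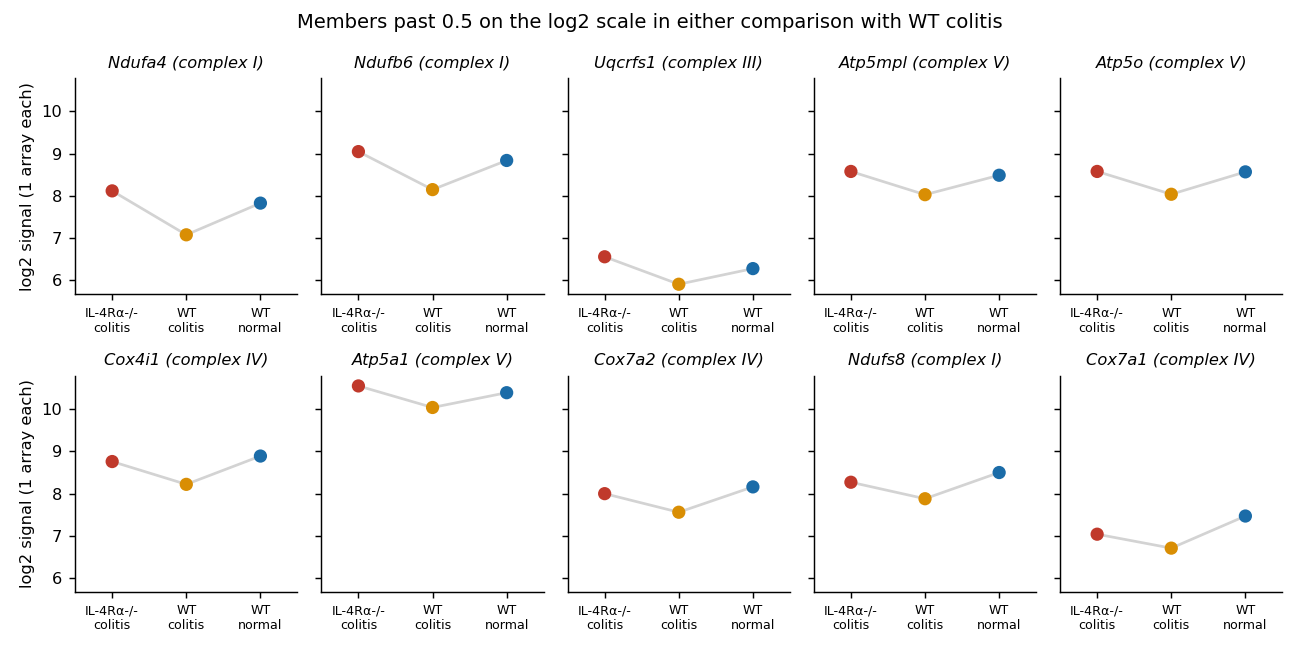
Log2 signal on the IL-4Rα-/- colitis, WT colitis and WT normal arrays (1 point per array, joined by grey lines) of the 10 members past 0.5 on the log2 scale in a comparison with WT colitis. WT colitis is lowest in each, and Cox7a1 and Ndufs8 in IL-4Rα-/- colitis differ from WT normal by -0.43 and -0.23.

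Of 17 members with more than 1 probe set, 2 had probe sets whose differences were apart by more than 0.2 in WT colitis minus WT normal, and 4 in IL-4Rα-/- colitis minus WT colitis (Ndufa11, Ndufab1, Uqcr11 and Atp5pb). For Uqcr11 the brighter probe set had 7.63 on all arrays, whereas the other had 7.25 in IL-4Rα-/- colitis, 6.78 in WT colitis and 7.14 in WT normal. For Ndufa11 the brighter one is given above, and the other had 6.97, 6.94 and 6.97. A further 6 probe sets with several symbols included a symbol of the chain, and they were left out of the counts. Those for Cox7c had differences from -0.03 to 0.0 between WT colitis and WT normal, and those for Ndufb4 had -0.15 and -0.05.

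Subunits encoded in mitochondrial DNA were measured by 2 genes of the list. COX2 had 12.29 on both colitis arrays and 12.17 in WT normal, and ND3 had 11.85 in IL-4Rα-/- colitis, 11.80 in WT colitis and 11.74 in WT normal. As deposited, neither was lower in WT colitis than on the WT normal array. Of 13 regulators of mitochondrial biogenesis, 8 were above WT normal in WT colitis, 0 lower and 5 equal as deposited, beside 35.8% of all genes higher. These signs depend on the scale of the arrays. Centring each array on its median moved the median of all genes in this comparison from 0.0 to -0.07. The 5 equal regulators, Ppargc1b (0.03), Tfb2m (0.04), Tfb1m (0.06) and the mitochondrial gene ND3 (0.06) lie within that shift. Past the 0.2 margin 2 were higher, Gabpa and Pparg, and 0 lower, beside 16.9% of all genes higher, a share of the 13 near that background. The largest of these differences was that of Gabpa, an ETS factor that activates nuclear genes of the chain, with 6.63 in IL-4Rα-/- colitis, 6.67 in WT colitis and 6.17 in WT normal. Ppargc1a, the coactivator PGC-1α, had 7.30, 7.56 and 7.39, and Pparg had 8.93, 9.14 and 8.75. Nrf1, Esrra and Yy1 had the same value on all 3 arrays (5.54, 5.78 and 8.06), and Tfam, which packages and transcribes mitochondrial DNA, had 4.44 on both colitis arrays and 4.35 in WT normal.

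Ribosomal proteins, of which the mitochondrial set makes the subunits encoded in mitochondrial DNA, were counted beside the chain. Of 77 mitochondrial ribosomal protein genes, 13 (16.9%) were below WT normal in WT colitis by more than 0.2 and 3 higher, and 17 (22.1%) were above WT colitis in IL-4Rα-/- colitis and 0 lower. Of 64 cytosolic ribosomal protein genes, 9 (14.1%) were lower in WT colitis and 0 higher, and 11 (17.2%) were higher in IL-4Rα-/- colitis and 2 lower. In the respiratory chain these shares were 36.0% and 39.3% as deposited. The gaps depend on the scale of the arrays. With each array centred on its median, the mitochondrial ribosomal shares were 24.7% and 35.1%. The cytosolic shares were then 23.4% and 28.1%, and those of the chain 42.7% and 48.3%. Quantile normalization gave 28.6% and 39.0% for mitochondrial ribosomal genes and 43.8% and 48.3% for the chain. A mean of at least 8 was reached by 2 mitochondrial and 43 cytosolic ribosomal genes and 46 members. The difference between the lists was not tested.

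**Figure D4:**
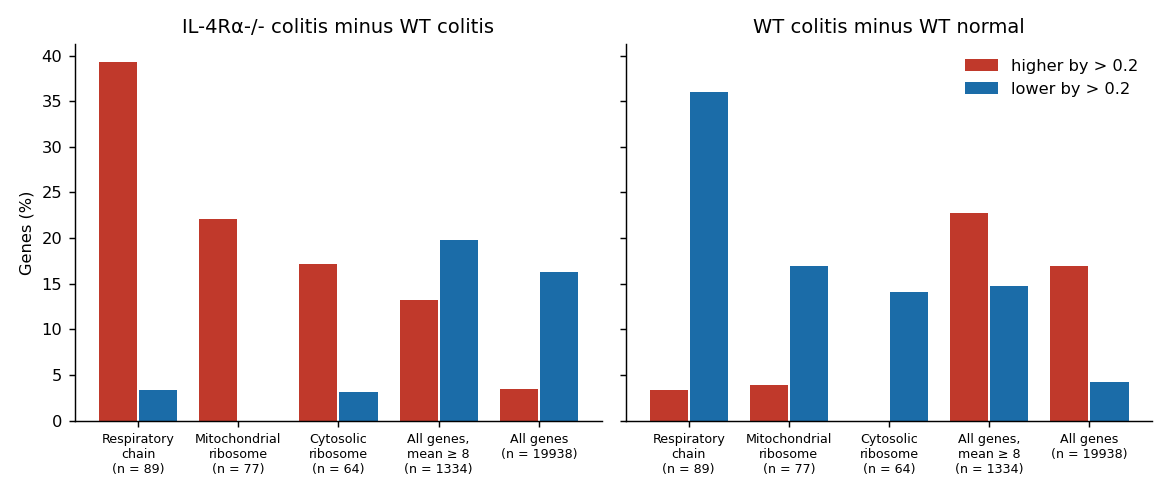
Share of genes (percent) higher (red) or lower (blue) by more than 0.2 on the log2 scale, for IL-4Rα-/- colitis minus WT colitis (left) and WT colitis minus WT normal (right). Of the respiratory chain genes 39.3% were higher on the left and 36.0% lower on the right, beside 3.47% and 4.25% of all genes.

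Signals of cell type markers differed between the pools. Of 12 epithelial markers, 9 were below WT normal in WT colitis, 2 were above it, and the median was -0.22. All 12 had signals above 8 on each array. Past 0.2, 7 were lower and 0 higher, beside 14.8% and 22.8% of all genes with a mean of at least 8. WT colitis was lowest for 7 of the 12 (58.3%) and highest for 0. Among genes with a mean of at least 8, it was lowest for 76.1% of members and 25.9% of all genes. These signs depend on the scale of the arrays, and after median centring WT colitis was lowest for 64.7% of all genes. Among the 12 markers Aqp8 differed most, with 9.67 in IL-4Rα-/- colitis, 8.03 in WT colitis and 9.59 in WT normal. Slc26a3 came next, with 10.01, 9.05 and 10.11 on these arrays. The 2 above WT normal in WT colitis were Epcam (10.28, 10.16 and 10.07) and Krt20 (10.14, 10.11 and 9.94). Cdh1 had 10.49 on all arrays, and Krt18 was below WT normal on both colitis arrays (9.03, 9.09 and 9.60). In turn, 9 of the 12 markers were above WT colitis in IL-4Rα-/- colitis, with a median of 0.12. The log2 of their summed signal was 14.6 in IL-4Rα-/- colitis, 14.5 in WT colitis and 14.7 in WT normal. The medians of WT colitis minus WT normal were 0.5 for 10 leukocyte markers, 0.635 for 6 fibroblast markers and 0.68 for 5 endothelial markers. The log2 of the summed leukocyte signal was 8.72 in IL-4Rα-/- colitis, 9.14 in WT colitis and 8.69 in WT normal, and that of the fibroblast markers was 10.3, 11.3 and 10.3. In whole tissue, fewer cells of a type and less RNA per cell cannot be told apart, and the part of cell makeup in the respiratory chain differences was not tested. WT normal also carried genes of the exocrine pancreas, with a summed log2 signal of 11.3, beside 6.79 in IL-4Rα-/- colitis and 6.56 in WT colitis, and its part in the WT normal values was not tested either.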

How the data were processed

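Colonic RNA of 3 groups was measured on 1 array each. For 28944 probe sets the authors deposited a log2 signal per array, rounded to 2 decimals. Their normalization, not given in the sources used here, could shift all differences of an array. The methods name the GeneChip Mouse Gene 1.0 ST array, whereas the labels describe Cy3 labelling with an Agilent kit. Symbols came from the platform annotation. For each of 19938 genes with 1 symbol, the probe set of highest mean signal across arrays was kept (21789 probe sets had 1 symbol, 1621 had several and 5534 had none here). All 89 members matched a RefSeq gene under the same symbol. The members, the gene lists and the thresholds were chosen with earlier results of these data known.

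Differences were taken between log2 signals. With 1 array per group there is no replicate error, and no test or p-value is given. A gene was called past 0.2, 0.5 or 1 on the log2 scale (1.15-fold, 1.41-fold or 2-fold). The 0.2 margin was added after the data had been seen. The genes named were the 8 largest differences in each direction and comparison, every member past 0.5, the core subunits and the tissue isoforms. A list was described by counts and medians beside those of all 19938 genes. Exact ties between arrays were frequent: 45.8% of all genes and 15 members (16.9%) had the same value on all 3 arrays. Alternatives were quantile normalization, centring on the median, an offset of 32 on the linear scale, 2 filters on dim genes, averaging a gene's probe sets, and 3 other member lists. The counting step was tested on simulated data. Python 3.11.15, numpy 2.4.6, pandas 2.3.3 and matplotlib 3.10.9 were used.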

Additional observations from a re-analysis of the deposited data

How the results depend on the processing

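Members past 0.5 numbered 13 below WT normal in WT colitis and 11 above WT colitis in IL-4Rα-/- colitis with quantile normalization, and the same counts resulted from centring each array on its median. WT colitis was then lowest for 78 members (quantile) and 79 (centring), beside 64.9% and 64.7% of all genes. Under quantile normalization 45 members were below and 43 above WT normal in IL-4Rα-/- colitis (29 and 31 as deposited), and 0 members were highest in WT colitis by more than 0.2. With an offset of 32, 2 members were past 0.5 and 0 past 2-fold in IL-4Rα-/- colitis over WT colitis, and 0 past 0.5 over WT normal. Among members at or above the median of all values, complex IV had a median of -0.22 for WT colitis minus WT normal, and 3 members were below WT colitis in IL-4Rα-/- colitis. Among the 46 members with a mean of at least 8, 4 were past 0.5 and lower in WT colitis, 35 were below and 6 above WT normal, and the medians were -0.16 for complex I and -0.22 for complex IV. In IL-4Rα-/- colitis 41 of the 46 were above and 2 below WT colitis, 0 passed 2-fold, the complex I median was 0.26, and 18 were above and 16 below WT normal. These counts are lower because fewer genes were counted. Centring moved every WT colitis minus WT normal difference by -0.07. It moved every IL-4Rα-/- colitis minus WT colitis difference by 0.07, so values equal as deposited were then counted as different. The cause of the remaining shifts was not tested. No median of the members or of a complex changed sign where it was at least 0.1 in size. No paired analysis was possible because each group has 1 array, and for the same reason no array could be left out. The scatter of a single array limits every difference given here.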
